A study of Mus musculus with 8 samples.

Results

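The genes described here make bile acids in the liver, join them to amino acids and move them into and out of hepatocytes. They were the rows of the deposited liver count table whose symbol was Cyp7a1, Cyp8b1, Cyp27a1, Cyp7b1, Akr1d1, Baat, Slc27a5, Slc10a1, Abcb11 or Abcb4. All 10 were found among the 19267 genes of the table, and all 10 were among the 13993 genes that passed the filter on low counts.

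Bile acids are made from cholesterol by a classic route that Cyp7a1 begins and an alternative route that Cyp27a1 and Cyp7b1 carry, and Cyp8b1 decides how much of the product becomes cholic acid. Akr1d1 reduces the steroid ring, Slc27a5 activates the acid with coenzyme A and Baat attaches taurine or glycine. Slc10a1 (NTCP) takes bile acids up from portal blood, Abcb11 (BSEP) exports them into bile and Abcb4 (MDR3 in humans) supplies the phospholipid that bile acids are carried with. The pathway is known for its feedback control, in which the bile acid receptor FXR (Nr1h4) raises Abcb11 and, through its target SHP (Nr0b2), holds back Cyp7a1.

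Liver RNA of male C57BL/6 mice aged 9 weeks was sequenced in 4 groups of 2 libraries. WT mice, which the methods describe as Cre mice, received a Lieber-DeCarli liquid diet for 21 days, either with isocaloric maltose dextrin (WT-Control) or with 5% (w/v) alcohol (WT-EtOH). Elf4fl/fl-Villin-Cre mice received the same diets for the same time (Elf4-/- Control and Elf4-/- EtOH). Villin Cre removes Elf4, an ETS transcription factor, from intestinal epithelium and not from hepatocytes, and the animals were pair-fed. Elf4 itself was counted at 0.895 to 4.51 CPM (counts divided by the scaled library size and multiplied by 1000000) across the 8 liver libraries, which checks nothing about a deletion made in the gut. The comparisons ask what the alcohol diet and gut loss of Elf4 did to these liver genes. Nothing stated whether each library was a separate mouse, so p-values measure only the spread between these libraries.

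Library totals ran from 6171051 to 9157362 counts. The 7 hepatocyte markers, among them Alb and Apob, were abundant in every library. Other things also differed between WT-Control and WT-EtOH. Mitochondrial transcripts took 23.4% and 33.7% of WT-Control counts and 10.8% and 12.5% of WT-EtOH counts, and their share was between 18.3% and 22.1% in the Elf4-/- libraries. The summed level of the 5 Kupffer cell markers was 148 and 193 CPM in WT-Control and 491 and 539 CPM in WT-EtOH, against 132 and 136 CPM in Elf4-/- Control and 181 and 194 CPM in Elf4-/- EtOH. In WT mice all 5 Kupffer, all 4 endothelial and 3 of 4 stellate markers rose with alcohol, and no marker of these lists was at 0 counts in any library. In Elf4-/- mice 1 Kupffer marker rose and no endothelial or stellate marker passed. Averaged over genotypes 4 Kupffer, 3 endothelial and all 4 stellate markers rose with alcohol. The 4 endothelial markers summed to 39.2 to 198 CPM, the 6 cholangiocyte markers to 67.6 to 182 CPM and the 5 intestinal markers in the table to 174 to 278 CPM across the 8 libraries. The lowest intestinal marker held 0 to 4 counts a library and the lowest cholangiocyte marker 0 to 3, so these sums do not describe every marker. Averaged over genotypes 1 cholangiocyte and 1 intestinal marker fell with alcohol. Hepatocyte markers summed to 53727 and 73493 CPM in WT-Control and to 32608 and 38964 CPM in WT-EtOH, with 1 of 7 past the test, and to 64907 and 71768 CPM in Elf4-/- Control and 41062 and 54115 CPM in Elf4-/- EtOH. The 4 stellate markers summed to 60.0 and 23.7 CPM under Control and 219 and 288 CPM under EtOH in WT mice, and to 103 and 74.7 CPM and 296 and 175 CPM under these diets in Elf4-/- mice. In whole liver, fewer cells of a type and less RNA per cell cannot be told apart.

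Set against annotated exonic length, the members covered a wide range of levels. Cyp27a1, which lies at chromosome 1, 74713574 to 74737892 (mm10, plus strand), had the highest mean at 255 CPM per kb over the 8 libraries, with a range of 177 to 400 CPM per kb. It was followed by Slc27a5 at 149, Baat at 112, Slc10a1 at 108, Abcb11 at 96.5 and Akr1d1 at 71.2 CPM per kb. Cyp8b1 followed at 41.8, Cyp7b1 at 25.0, Abcb4 at 22.4 and Cyp7a1 at 8.40 CPM per kb. Only Cyp27a1 and Slc27a5 were neighbours in this order whose libraries did not overlap, since the highest Slc27a5 library was at 171 CPM per kb. Each other neighbouring pair overlapped.

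**Figure D1:**
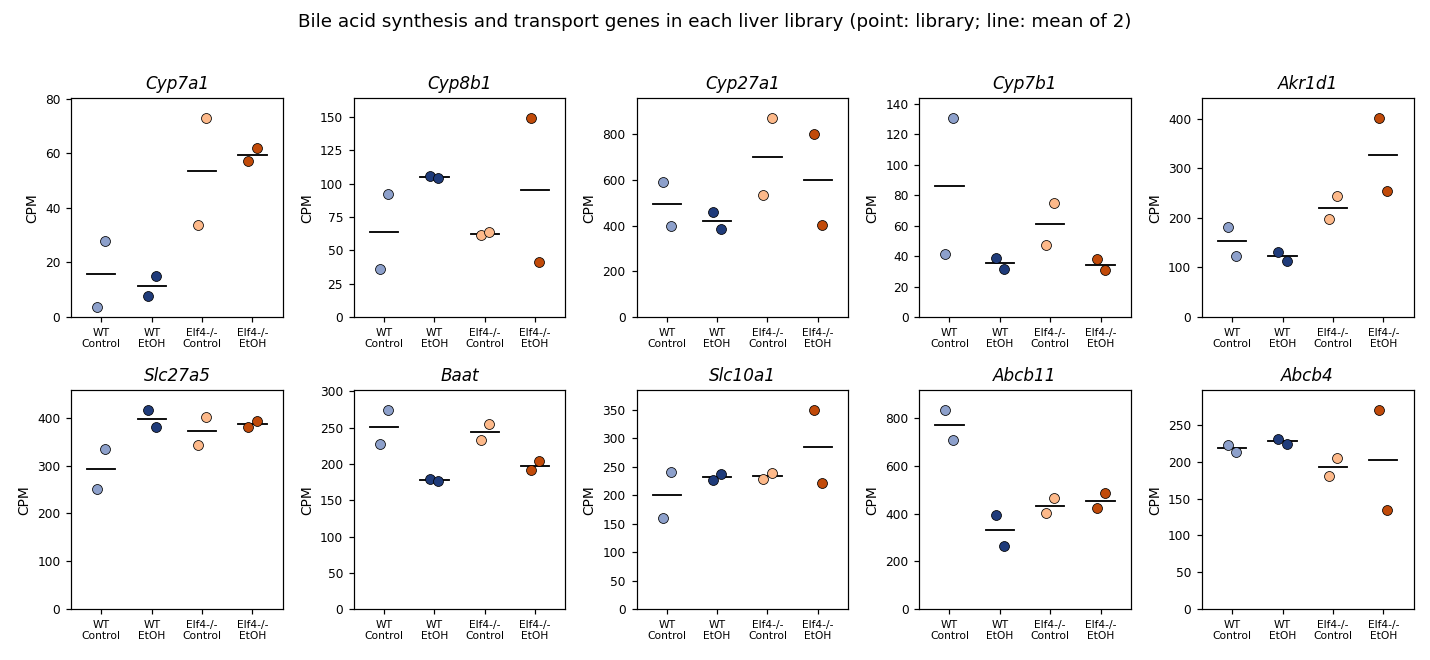
Level of the 10 members in CPM (vertical axes from 0) in each library of the 4 groups on the horizontal axis, where each point is a library and each line the mean of 2. Cyp7a1 and Akr1d1 lie higher in all 4 Elf4-/- libraries than in any WT library, Abcb11 is highest in WT-Control at 708 and 833 CPM, and Cyp7b1 is lower in every EtOH library than in any Control library.

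The starts of 3 members whose levels or known regulation matter most here are shown with the motifs found in them. Each window holds 250 bases before and 50 bases after a gene start annotated by RefSeq (GRCm38.p6), written 5′ to 3′ on the strand of the gene. Abcb11 is at chr2:69342567-69342866 (minus strand) and is shown because it was the member that alcohol moved in WT mice. Akr1d1 at chr6:37529923-37530222 (plus strand) is shown because its level was higher in every Elf4-/- library than in any WT library. Cyp8b1 at chr9:121916256-121916555 (minus strand) is shown because motifs of 2 of its known regulators meet there. Capitals mark matches on either strand to AGGTCA (the core hexamer read by nuclear receptors), CAAAGTCCA (an HNF4A motif) and CAAGGNCA (an NR5A2 motif).
Abcb11: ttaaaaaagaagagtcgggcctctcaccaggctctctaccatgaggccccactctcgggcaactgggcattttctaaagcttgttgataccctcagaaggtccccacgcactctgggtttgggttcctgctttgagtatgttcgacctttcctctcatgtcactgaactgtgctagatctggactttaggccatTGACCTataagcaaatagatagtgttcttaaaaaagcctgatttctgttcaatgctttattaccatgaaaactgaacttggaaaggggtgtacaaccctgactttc
Akr1d1: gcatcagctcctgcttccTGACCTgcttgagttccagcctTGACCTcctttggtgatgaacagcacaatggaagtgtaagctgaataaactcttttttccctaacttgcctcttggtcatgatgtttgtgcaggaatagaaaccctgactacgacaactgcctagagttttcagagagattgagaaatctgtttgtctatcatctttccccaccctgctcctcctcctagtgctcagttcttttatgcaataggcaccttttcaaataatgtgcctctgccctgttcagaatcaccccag
Cyp8b1: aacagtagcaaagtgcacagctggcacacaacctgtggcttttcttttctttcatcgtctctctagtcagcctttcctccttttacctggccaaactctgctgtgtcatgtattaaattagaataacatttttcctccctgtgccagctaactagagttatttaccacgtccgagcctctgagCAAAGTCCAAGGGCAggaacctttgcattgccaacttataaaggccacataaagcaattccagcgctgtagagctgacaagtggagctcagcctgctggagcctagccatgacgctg

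In the Abcb11 window AGGTCA was found once, on the opposite strand from base -56 to base -51, where the base before the start is -1. The Akr1d1 window held it at 2 places, from -232 to -227 and from -210 to -205, both on the opposite strand. In Cyp8b1 the HNF4A motif ran from -67 to -59 and the NR5A2 motif from -60 to -53, so that they overlapped. AGGTCA was present in 16.3%, CAAGGNCA in 6.71% and CAAAGTCCA in 0.475% of 32851 mouse promoter windows of the same length. Of the other members with a window, Slc10a1 held AGGTCA at 1 of its 2 annotated starts, from -87 to -82 on its own strand, and Abcb4 and Cyp27a1 held none of these motifs. Motifs of Cyp7a1, Cyp7b1, Baat and Slc27a5 were not analysed here.

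Alcohol lowered 1 of the 10 members in WT livers, the bile salt export pump Abcb11, and raised none. Across all genes tested 10.8% fell and 10.8% rose in this comparison, so 1 of 10 was close to the background. Abcb11 stood at 833 and 708 CPM under Control and 396 and 263 CPM under EtOH in WT mice, and at 402 and 464 CPM and 421 and 485 CPM under these diets in Elf4-/- mice. Both WT-Control libraries were thus far above the other 6, and WT-EtOH replicate 2 was the lowest of all. The log2 fold change with alcohol in WT mice was -1.23 ± 0.26 (SE; adjusted p = 0.0115, edgeR). The adjusted p was 0.0548 without WT-Control replicate 1 (log2 fold change -1.11) and 0.114 without WT-EtOH replicate 2 (-0.97).

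The Abcb11 change stood beside the differences in mitochondrial share and in Kupffer, endothelial and stellate markers between the WT groups, and their part in it was not tested. With library totals alone as the scale, which shifted the median gene of this comparison by 0.43 on the log2 scale, it was -0.80 with an adjusted p of 0.0377. On that scale 3422 genes rose and 634 fell with alcohol in WT mice, against 1518 and 1507 on the scale used here. Abcb11 (chromosome 2, 69238282 to 69342616, minus strand) overlaps the exons of Gm13613 and Gm13614 on the opposite strand. Gm13613 took 11.8 to 43.4 CPM and between 4.24% and 5.63% of the Abcb11 count in each library, and Gm13614 was not analysed here. Whether counting used strand was not stated, so reads of Abcb11 and of these genes cannot be told apart. The other 9 members share no exon with another annotated gene.

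In Elf4-/- mice none of the 10 members passed the edgeR test with alcohol, beside 1.71% of genes higher and 1.18% lower. None had an unadjusted p under 0.05, beside 21.2% of all genes. DESeq2 called none, beside 6.56% of the 12365 genes that it gave an adjusted p. The log2 fold change of Abcb11 here was 0.07 ± 0.26, with a 95% interval of -0.51 to 0.64. The difference between the 2 diet effects, the interaction of genotype and diet, was 1.29 ± 0.37 for Abcb11 (unadjusted p = 0.00564, adjusted p = 0.311, edgeR), which did not pass. By DESeq2, which called 1.26% of the 8838 genes that it gave an adjusted p here, the same difference had an adjusted p of 0.0434. No gene passed the interaction test in edgeR (0%), and Abcb11 was the only member with an unadjusted p under 0.05 in it, as 10.1% of all genes had.

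**Figure D2:**
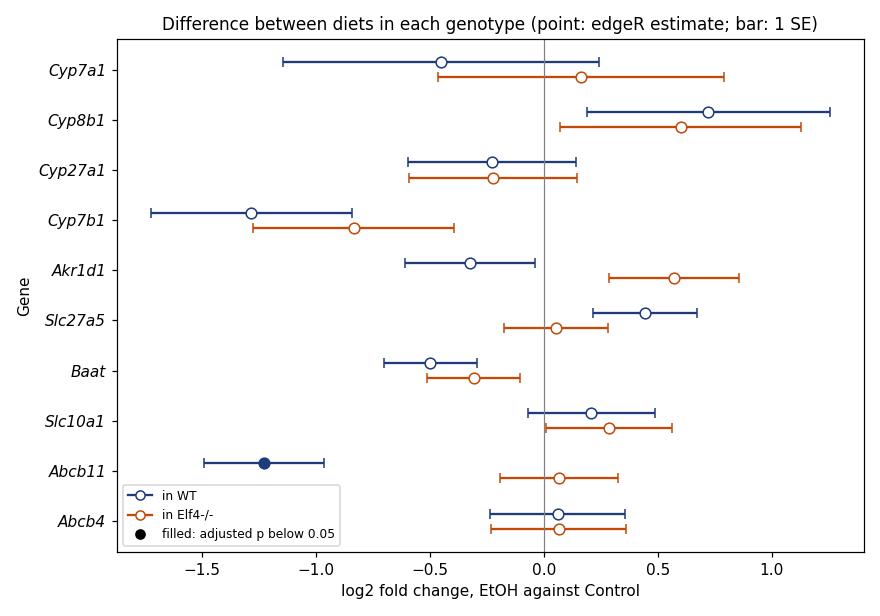
Log2 fold change of EtOH against Control (horizontal axis) for the 10 members (vertical axis), in WT mice (blue) and Elf4-/- mice (orange), with bars of 1 SE and filled points where the adjusted p was below 0.05. The Abcb11 point in WT, at -1.23, is the single filled one, and the Elf4-/- point for the same gene sits at 0.07.

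The alternative route enzyme Cyp7b1 (chromosome 3, 18071950 to 18243338, minus strand), which hydroxylates oxysterols, was lower with alcohol over both genotypes. Its level was 41.0 and 130 CPM under Control and 38.8 and 31.8 CPM under EtOH in WT mice, and at 47.6 and 74.7 CPM and 37.9 and 30.6 CPM under these diets in Elf4-/- mice. All 4 EtOH libraries were below all 4 Control libraries, although WT-Control replicate 1 was only just above the highest of them and replicate 2 stood far above the rest. The log2 fold change averaged over genotypes was -1.06 ± 0.31 (adjusted p = 0.0308, edgeR), from -1.28 ± 0.44 in WT (adjusted p = 0.0640) and -0.83 ± 0.44 in Elf4-/- mice (adjusted p = 0.306). Without WT-Control replicate 2 the averaged value was -0.53 (adjusted p = 0.0911). In WT mice DESeq2 called Cyp7b1 (adjusted p = 0.0150), and 20.1% of all genes.

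Averaged over genotypes, 2 of the 10 members fell with alcohol, Cyp7b1 and Abcb11, and none rose, beside a background of 13.8% lower and 14.1% higher. Abcb11 fell by 0.58 ± 0.18 on the log2 scale (adjusted p = 0.0406, edgeR), with overlapping libraries since only its WT groups were apart. The shifts in stellate, Kupffer, endothelial and hepatocyte markers stood beside the averaged calls of members and of the further pathway genes, and their part in them was not tested. The calls of both members were lost with library totals alone as the scale (Cyp7b1 at -0.86 with an adjusted p of 0.0569, Abcb11 at -0.38 with an adjusted p of 0.134). The count of members called was 0 without WT-Control replicate 2, WT-EtOH replicate 2 or Elf4-/- Control replicate 2. It was 1 without WT-Control replicate 1, WT-EtOH replicate 1, Elf4-/- Control replicate 1 or Elf4-/- EtOH replicate 1. It was higher without Elf4-/- EtOH replicate 2. The share of all genes called in these fits was not worked out, so these counts have no background.

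Baat, the amino acid transferase of bile acid conjugation, showed the same separation of diets as Cyp7b1 on a smaller scale. It stood at 227 and 274 CPM under Control and 179 and 176 CPM under EtOH in WT mice, and at 234 and 255 CPM and 191 and 204 CPM under these diets in Elf4-/- mice. Every EtOH library was below every Control library, but the averaged log2 fold change of -0.40 ± 0.14 did not pass (adjusted p = 0.0617, edgeR). Diets did not overlap in this direction for 2 of the 10 members, Cyp7b1 and Baat, and for 14% of all genes tested. In the upward direction this held for no member and for 13.9% of genes. Slc27a5, the ligase that acts before Baat, was at 250 and 335 CPM in WT-Control and at 416 and 380 CPM in WT-EtOH, with 343 to 402 CPM in the Elf4-/- libraries. WT-Control was the group below all others, and the WT log2 fold change of 0.44 ± 0.23 had an adjusted p of 0.192. With library totals alone as the scale it was 0.87 (adjusted p = 0.0213).

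Cyp7a1 (chromosome 4, 6265612 to 6275633, minus strand), the rate-limiting enzyme of the classic route, was the member whose group means were furthest apart, with a range of 2.53 on the log2 CPM scale. It stood at 3.54 and 28.0 CPM in WT-Control and at 7.84 and 15.1 CPM in WT-EtOH. In Elf4-/- Control it was at 33.9 and 72.9 CPM and in Elf4-/- EtOH at 57.2 and 62.0 CPM. All 4 Elf4-/- libraries were above all 4 WT libraries, and the pairs of WT-Control and of Elf4-/- Control were themselves widely spread. The lowest library held 19 Cyp7a1 counts, and the next lowest 62. The log2 difference between genotypes was 1.75 ± 0.67 under Control (unadjusted p = 0.0265, adjusted p = 0.630, edgeR) and 2.37 ± 0.68 under EtOH (unadjusted p = 0.00577, adjusted p = 0.260). Neither passed after adjustment over all genes. Diet gave log2 fold changes of -0.45 ± 0.69 in WT and 0.16 ± 0.63 in Elf4-/- mice, with 95% intervals from -1.99 to 1.09 and from -1.24 to 1.56.

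Akr1d1 (chromosome 6, 37530173 to 37568815, plus strand), the steroid reductase shared by both routes, was also higher in all 4 Elf4-/- libraries than in any WT library. It stood at 182 and 123 CPM under Control and 132 and 113 CPM under EtOH in WT mice, and at 197 and 244 CPM and 401 and 254 CPM under these diets in Elf4-/- mice. The 4 groups ran upward from WT-EtOH to Elf4-/- EtOH, whose replicate 1 was the highest library. The log2 difference between genotypes was 1.42 ± 0.29 under EtOH (unadjusted p = 0.000603, adjusted p = 0.132, edgeR) and 0.53 ± 0.29 under Control (adjusted p = 0.753). Under EtOH DESeq2 gave an adjusted p of 0.000637. By edgeR the value was 1.71 without Elf4-/- EtOH replicate 2, a fit in which that group rests on its highest library alone. The interaction for Akr1d1 was 0.89 ± 0.40 (unadjusted p = 0.0509, adjusted p = 0.496).

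By edgeR no member passed the test between genotypes under EtOH, where 0.143% of all genes did, or under Control, where 0.0143% did. Under EtOH 2 members, Cyp7a1 and Akr1d1, had an unadjusted p under 0.05, beside 10.5% of all genes, and DESeq2 called 1, Akr1d1, beside 1.31%. Under Control 2 members had such a p, Cyp7a1 and Abcb11, beside 7.31% of all genes, and DESeq2 called none, beside 0.668%. Abcb11 was lower in Elf4-/- than in WT livers under Control by the fit, at -0.83 ± 0.26 (adjusted p = 0.484). Under EtOH 2 of the 5 Kupffer markers were lower in Elf4-/- than in WT livers, and the part of this in the genotype differences was not tested. The Abcb11 value rests on the same WT-Control libraries as the diet effect in WT mice.

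A comparison of genotypes averaged over diets was added after these values had been seen. It gave 2.06 ± 0.48 for Cyp7a1 (unadjusted p = 0.00153, adjusted p = 0.198, edgeR) and 0.98 ± 0.20 for Akr1d1 (unadjusted p = 0.000703, adjusted p = 0.152). No member passed, beside 0.136% of all genes, and these 2 were the members with an unadjusted p under 0.05, as 7.94% of all genes had. DESeq2, which called 0.843% of genes, called Akr1d1 (adjusted p = 0.00124) and not Cyp7a1 (adjusted p = 0.218). With each library left out in turn Cyp7a1 ranged from 1.65 without WT-Control replicate 1 to 3.14 without WT-Control replicate 2, and Akr1d1 from 0.80 to 1.14. Without Elf4-/- EtOH replicate 2, which leaves replicate 1 alone in its group, the Akr1d1 value was 1.12. Genotypes did not overlap in the upward direction for these 2 of the 10 members and for 1.16% of all genes tested, and in the downward direction for no member and for 0.865% of genes.

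**Figure D3:**
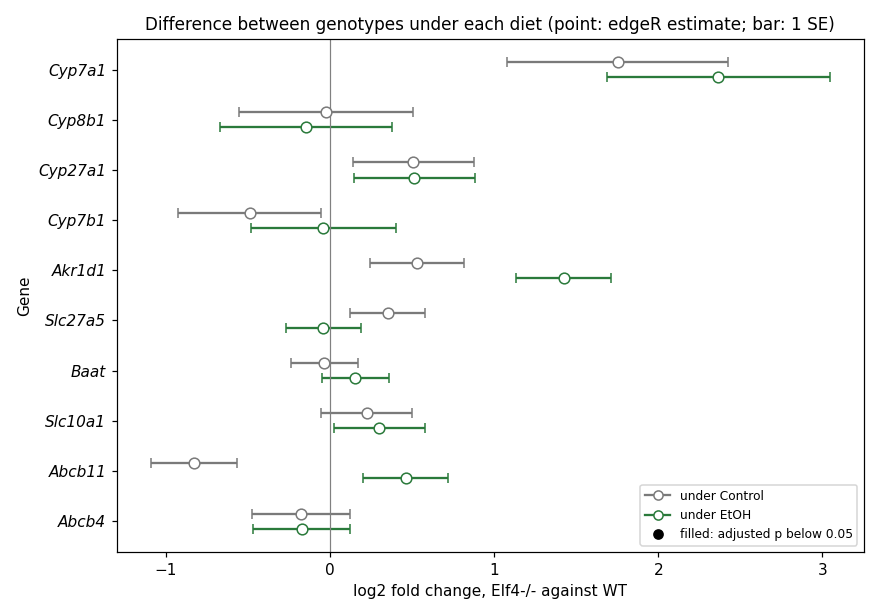
Log2 fold change of Elf4-/- against WT (horizontal axis) for the 10 members (vertical axis), under Control (grey) and under EtOH (green), with bars of 1 SE and open points because no adjusted p was below 0.05. Cyp7a1 lies at 1.75 and 2.37, Akr1d1 at 0.53 and 1.42, and Abcb11 at -0.83 and 0.46.

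The other members gave no separation of this kind. Cyp8b1, the sterol hydroxylase that makes cholic acid, was at 35.6 and 91.8 CPM under Control and 106 and 105 CPM under EtOH in WT mice, and at 61.7 and 63.4 CPM and 149 and 41.0 CPM under these diets in Elf4-/- mice. Its highest and its second lowest library thus belonged to the same group. The log2 fold change with alcohol was 0.72 ± 0.53 in WT mice (adjusted p = 0.356, edgeR) and 0.60 ± 0.53 in Elf4-/- mice (adjusted p = 0.551).

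Cyp27a1, the mitochondrial enzyme that begins the alternative route, ranged from 385 to 870 CPM. Its extremes were a WT-EtOH library and an Elf4-/- Control library, and its genotype differences were 0.51 ± 0.37 under each diet. The 95% interval under Control ran from -0.32 to 1.33. Slc10a1, the uptake carrier, ranged from 160 to 349 CPM, with 6 libraries between 221 and 241 CPM. Its diet effects were 0.21 ± 0.28 in WT and 0.29 ± 0.28 in Elf4-/- mice.

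Abcb4, the phospholipid floppase of the canalicular membrane, had the closest group means of the 10, with a range of 0.26 on the log2 CPM scale. It was at 223 and 213 CPM in WT-Control and at 231 and 224 CPM in WT-EtOH. The Elf4-/- EtOH libraries, at 270 and 134 CPM, were the highest and the lowest. Its diet effect in WT mice was 0.06 ± 0.30, with a 95% interval from -0.60 to 0.72, while Abcb11 on the same membrane had an interval from -1.81 to -0.64. The median log2 fold change of the 10 members with alcohol was -0.27 in WT and 0.07 in Elf4-/- mice, and that of all genes tested was 0.01 in each.

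Genes whose profile over the 8 libraries was nearest to a member were sought among 7166 genes that averaged 100 counts or more, for the 3 members with the widest range of group means. Nearness was the root mean square difference of log2 CPM after each gene was centred on its own mean. For Cyp7a1 the nearest was Noct, a clock-linked phosphatase, at 0.62, and others near it were Zfp970 at 0.93, Pmvk, an enzyme of the mevalonate pathway, at 0.94, and Ccl9 at 0.95. For Akr1d1 they were Sgf29, Shld2, Megf9, Ifrd1 and Aldh1l1, at 0.18 to 0.23. For Abcb11 they were Calr at 0.12, the overlapping Gm13613 at 0.12, Thpo at 0.15, Mx2 at 0.19 and mt-Nd2 at 0.19. These are descriptions of 8 libraries, and they say nothing of shared function or control.

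Other genes of the pathway moved with alcohol in both directions. The 45 listed were 13 further synthesis enzymes, 11 transporters, 16 regulators and 5 detoxification enzymes, and 43 of them were tested. In WT mice 10 rose and 8 fell, where 10.8% of all genes rose and 10.8% fell. In Elf4-/- mice 2 rose and 3 fell, where 1.71% rose and 1.18% fell. Averaged over genotypes 11 rose and 8 fell, and the share of all genes in that comparison, 14.1% higher and 13.8% lower, also stands behind the counts by list that follow. In the averaged comparison 14 of the 19 calls held with each of the 8 libraries left out in turn.

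Among the synthesis enzymes 5 of 12 tested rose with alcohol averaged over genotypes and none fell. The median log2 fold change was 0.39 beside 0.01 for all genes tested. In WT mice 5 of the 12 rose and 1, Amacr, fell, beside 10.8% of all genes in each direction. In Elf4-/- mice alone none of the 12 passed, beside 1.71% of all genes higher and 1.18% lower. Cyp39a1, an oxysterol hydroxylase, stood at 4.10 and 3.50 CPM under Control and 27.3 and 17.5 CPM under EtOH in WT mice, and at 6.35 and 8.20 CPM and 30.1 and 13.3 CPM under these diets in Elf4-/- mice. The diets did not overlap, and the averaged log2 fold change was 2.06 ± 0.29 (adjusted p = 0.00129, edgeR). The peroxisomal genes Abcd3 (1.13 ± 0.20), Acot8 (1.10 ± 0.19) and Hsd17b4 (0.82 ± 0.15), which act in shortening the bile acid side chain and in fatty acid oxidation, rose with it. So did Akr1c6 (0.88 ± 0.19), a hydroxysteroid dehydrogenase. The Abcd3 value came from 1.58 ± 0.28 in WT and 0.68 ± 0.28 in Elf4-/- mice (adjusted p = 0.196, edgeR), with an interaction adjusted p of 0.484. Acot8 overlaps Snx21 on the opposite strand.

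Of the 11 transporters 2 rose and 3 fell over both genotypes, with a median of -0.56. Abcc4 (MRP4), which exports bile acids back to blood, was at 1.12 and 0.37 CPM under Control and 25.5 and 49.7 CPM under EtOH in WT mice, and at 0.41 and 0.75 CPM and 49.7 and 10.1 CPM under these diets in Elf4-/- mice. It was close to the detection limit in every Control library, which held 2 to 6 counts each, and well above it in every EtOH library. The averaged log2 fold change was 5.67 ± 0.63 (adjusted p = 0.000568, edgeR), and 4.90 without Elf4-/- EtOH replicate 1. Slc51a, a subunit of the basolateral exporter OST, rose by 1.15 ± 0.14, from 1.60 in WT and 0.70 in Elf4-/- mice, of which the WT value alone passed (interaction adjusted p = 0.324, edgeR). Its partner Slc51b held 0 to 19 counts a library and did not pass.

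Slco1a1, an organic anion uptake carrier, was at 338 and 270 CPM under Control and 82.6 and 58.0 CPM under EtOH in WT mice, and at 301 and 424 CPM and 40.6 and 107 CPM under these diets in Elf4-/- mice. It fell by 2.20 ± 0.29 on the log2 scale (adjusted p = 0.00105, edgeR), with no overlap between diets. Abcg5, a partner in the canalicular sterol exporter, fell by 1.28 ± 0.17 and Atp8b1, a canalicular phospholipid flippase, fell by 1.01 ± 0.22. The Atp8b1 average came mainly from WT mice, at -1.55 ± 0.32 against -0.48 ± 0.31 in Elf4-/- mice (adjusted p = 0.405), with an interaction adjusted p of 0.454 by edgeR. Slco1a1 has close paralogs, and Abcg5 overlaps Abcg8 and Slc51a overlaps Pcyt1a on the opposite strand, so part of these counts is uncertain.

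Of the 16 regulators 1 rose and 4 fell over both genotypes, with a median of -0.15. Nr0b2 (SHP), the repressor that FXR induces, was at 111 and 84.3 CPM under Control and 42.5 and 29.4 CPM under EtOH in WT mice, and at 49.6 and 72.2 CPM and 21.4 and 36.0 CPM under these diets in Elf4-/- mice. The EtOH libraries all lay below the Control libraries, and it fell by 1.26 ± 0.22 on the log2 scale (adjusted p = 0.00295, edgeR). Mafg, another repressor of bile acid synthesis genes, fell by 0.76 ± 0.14. It shares exonic sequence with Sirt7 on the same strand.

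The calls of 3 regulators depended on single libraries. Fgfr4, the receptor for the gut hormone that limits Cyp7a1, had an averaged log2 fold change of -0.66 ± 0.16 that came from WT mice, at -1.34 ± 0.23 (adjusted p = 0.00516, edgeR), with 0.01 ± 0.23 in Elf4-/- mice (adjusted p = 0.986). Its interaction was 1.35 ± 0.33 (unadjusted p = 0.00206, adjusted p = 0.273). The averaged value had an adjusted p of 0.0590 without WT-EtOH replicate 1, 0.0550 without WT-EtOH replicate 2 and 0.0581 without Elf4-/- Control replicate 1. Fgf21, a hormone that the liver secretes under metabolic stress, rose by 1.47 ± 0.34 on average, from 2.06 ± 0.46 in WT and 0.89 ± 0.48 in Elf4-/- mice (adjusted p = 0.316), with an averaged adjusted p of 0.0557 without WT-EtOH replicate 2. Nr5a2 (LRH-1), an activator of Cyp7a1 and Cyp8b1, fell by 0.45 ± 0.13, and it kept its call only without Elf4-/- EtOH replicate 1 or replicate 2, with adjusted p values up to 0.107. With library totals alone as the scale Fgfr4 (-0.46, adjusted p = 0.0828) and Nr5a2 (-0.25, adjusted p = 0.181) were not called, and DESeq2 did not call Nr5a2 (adjusted p = 0.0677). Nr1h4, the bile acid receptor itself, stood at 298 to 388 CPM in the Control libraries and 220 to 273 CPM in the EtOH libraries. Its diets did not overlap, and its log2 fold change of -0.43 ± 0.15 did not pass (adjusted p = 0.0591, edgeR).

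All 4 detoxification enzymes tested passed over both genotypes, 3 of them higher, and their median of 1.72 does not depend on the value taken for Cyp2b10. Cyp3a11, which hydroxylates bile acids and many drugs, was at 259 and 466 CPM under Control and 2546 and 2472 CPM under EtOH in WT mice, and at 719 and 673 CPM and 3642 and 4264 CPM under these diets in Elf4-/- mice. It rose by 2.65 ± 0.23 (adjusted p = 0.000228, edgeR). In WT mice Cyp2b10 held 0 counts in both Control libraries and 113 and 120 counts under EtOH. In Elf4-/- mice it held 1 and 2 counts under Control and 1633 and 13 under EtOH. Against a floor of 3 counts per Control library its mean in WT-EtOH was at least 23.9-fold higher, and the Elf4-/- EtOH level rested on replicate 1. Ugt1a1 rose by 0.80 ± 0.24 (1.09 in WT and 0.51 in Elf4-/- mice) and Sult2a8 fell by 1.03 ± 0.33 (-1.30 in WT and -0.76 in Elf4-/- mice), and each lost its call without any 1 of 6 libraries. The highest adjusted p for Ugt1a1 was 0.120, without Elf4-/- Control replicate 2, and for Sult2a8 it was 0.139, without WT-EtOH replicate 2. Without Elf4-/- EtOH replicate 2 the Sult2a8 value was -1.62, and with library totals alone it was -0.81 (adjusted p = 0.0876). Ugt1a1 shares exons with the other Ugt1a genes.

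**Figure D4:**
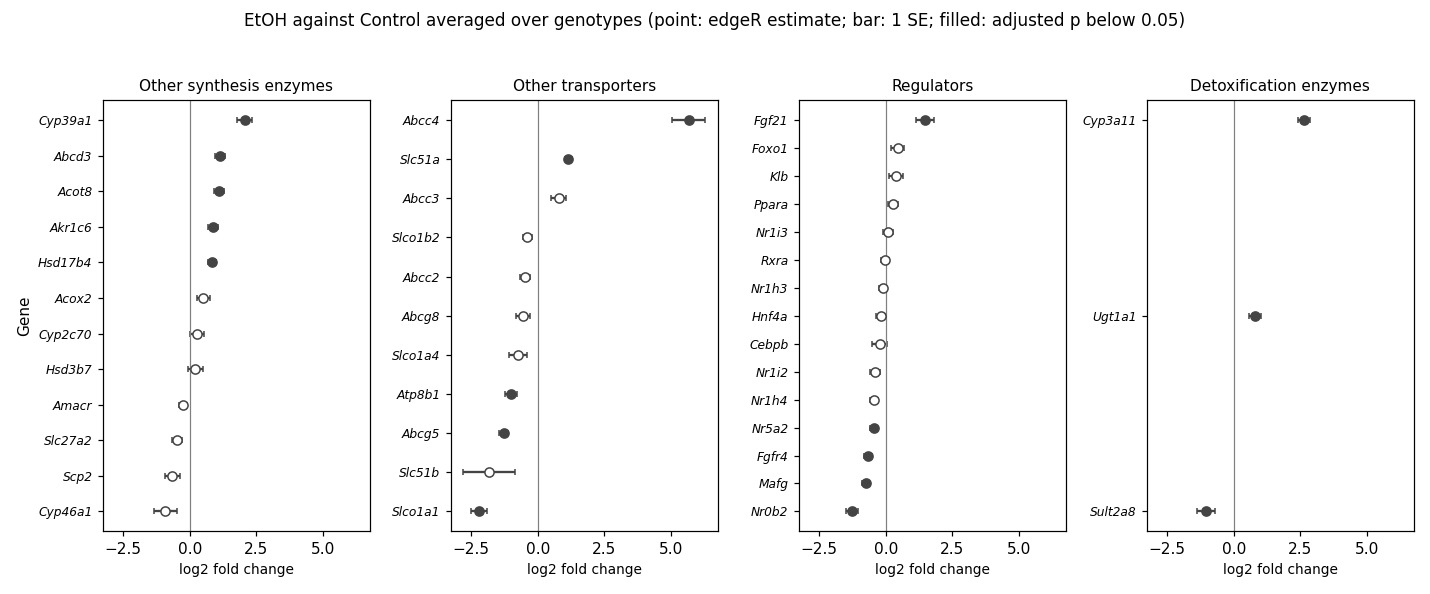
Log2 fold change of EtOH against Control averaged over genotypes (horizontal axes) for 41 of the 43 further bile acid genes tested (vertical axes) in 4 lists, with bars of 1 SE and filled points where the adjusted p was below 0.05. Cyp2b10 is among those not plotted, since it was at 0 counts in WT-Control. Abcc4 at 5.67, Cyp3a11 at 2.65 and Cyp39a1 at 2.06 lie furthest to the right, and Slco1a1 at -2.20 furthest to the left.

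Within WT mice the 18 pathway genes past the test also included Amacr and Slco1a4. Amacr, the racemase of side chain shortening, was at -0.62 ± 0.20 (adjusted p = 0.0499, edgeR). Slco1a4, a paralog of Slco1a1, was at -1.97 ± 0.50 (adjusted p = 0.0222). Cyp39a1 (2.55 ± 0.43), Abcc4 (5.64 ± 0.89), Slc51a (1.60 ± 0.20) and Cyp3a11 (2.79 ± 0.33) were the 4 that held with every library left out in turn, although Abcc4 was at 6.61 without WT-Control replicate 1. Without WT-EtOH replicate 2 the other 14 lost their calls, with adjusted p between 0.0533 and 0.285 by edgeR. Fewer pathway genes also passed without WT-Control replicate 1 or without WT-EtOH replicate 1. The share of all genes called in these fits was not worked out. Amacr was also lost with library totals alone (-0.19, adjusted p = 0.485) and with DESeq2 (adjusted p = 0.0562), and Mafg with library totals alone (-0.18, adjusted p = 0.561). Without the filter on low counts Amacr and Mafg were not called, and with the replicate number as a block Amacr, Mafg and Ugt1a1 were not. The calls of Amacr, Slco1a4, Hsd17b4 and Mafg were lost without any single WT library. As with Abcb11, these changes stood beside the higher Kupffer, endothelial and stellate markers of WT-EtOH, and the part of those was not tested.

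In Elf4-/- mice alcohol raised Abcc4 (5.71 ± 0.88) and Cyp3a11 (2.51 ± 0.33) and lowered Slco1a1 (-2.29 ± 0.42), Abcg5 (-1.10 ± 0.24) and Mafg (-0.91 ± 0.19). The higher stellate and lower hepatocyte sums of Elf4-/- EtOH stood beside these calls, and their part was not tested. Each of these calls was lost without either Elf4-/- Control library, and that of Mafg with library totals alone (adjusted p = 0.0538, edgeR). The call of Abcg5 was also lost without any single WT library. That of Mafg was also lost without either WT-EtOH library or Elf4-/- EtOH replicate 1. With the replicate number as a block neither Abcg5 nor Mafg was called. With only the 4 libraries compared, Cyp3a11 alone kept its call. Without Elf4-/- EtOH replicate 1 the Abcc4 value was 4.15, and without replicate 2 it was 6.43 and that of Slco1a1 was -3.17. More pathway genes passed without replicate 2, but the share of all genes called in that fit was not worked out. Between genotypes and in the interaction edgeR called none of the 43 pathway genes. Under EtOH 8 of them had an unadjusted p under 0.05, beside 10.5% of all genes. DESeq2 called 2, beside 1.31% of the genes that it gave an adjusted p. Under Control these counts were 6 and 0, beside 7.31% and 0.668%. In the interaction they were 8 and 1, beside 10.1% and 1.26%. In the comparison of genotypes averaged over diets 6 had such a p and DESeq2 called 2, beside 7.94% and 0.843%. Slco1a4 was the closest to the threshold, at 62.6 and 82.6 CPM under Control and 21.1 and 15.9 CPM under EtOH in WT mice, and at 70.1 and 148 CPM and 225 and 74.3 CPM under these diets in Elf4-/- mice. Its genotype difference under EtOH was 3.02 ± 0.52 (unadjusted p = 0.000162, adjusted p = 0.0755, edgeR).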

How the data were processed

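Liver RNA-seq of 8 libraries was analysed, 2 in each of 4 groups of genotype and diet taken from the sample labels. The authors deposited raw counts per gene, and the submitters' processing notes name mm10, HISAT2, SAMtools, HTSeq and DESeq2, without versions. Strand setting is not given in the sources used here. Counts of 19267 genes, with 6171051 to 9157362 counts per library, were filtered by edgeR's filterByExpr (13993 genes kept), scaled by TMM and fitted in a model of 4 groups with edgeR 4.0.16 (glmQLFit, glmQLFTest, R 4.3.3). P-values were adjusted by the Benjamini-Hochberg method over all genes tested, with a threshold of 0.05, and are two-sided. The SE is the absolute log2 fold change divided by the square root of F, and intervals are at 95%. CPM values use TMM-scaled library sizes. The common biological coefficient of variation was 22.7%. Intervals and floors of counts cover these libraries or counting error only.

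DESeq2 1.42.0, other scalings, no filter, fewer libraries and a replicate block were alternatives. The study's methods also used DESeq2, with no version stated. Shares called by DESeq2 are of the genes that it gave an adjusted p, from 8838 in the interaction to 13993. Shares by edgeR are of all 13993 genes tested. The members, the lists of pathway genes and the marker lists were chosen with earlier results of these data known. Listed pathway genes past the threshold were named. Some items are not reported here. Sult2a1 was not analysed here and Ch25h did not pass the filter. Promoter windows (7, for 6 of the 10 members) came from RefSeq GRCm38.p6 and gene positions from GENCODE M21 on mm10. The deposited table held 968 blank lines, which were dropped.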

Additional observations from a re-analysis of the deposited data

How the results depend on the processing

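The counts of called genes that moved by over 1.5 times are given here. For fits without the filter, with the replicate block or with fewer libraries, the share of all genes called was not worked out. Their counts therefore have no background. With DESeq2 the members called were 2 (alcohol in WT mice), 1 (genotype under EtOH), 1 (interaction) and 1 (genotype averaged over diets), and the further pathway genes called were 11 (alcohol in Elf4-/- mice), 2 (genotype under EtOH), 1 (interaction) and 2 (genotype averaged over diets). Library totals alone gave 2 members for alcohol in WT mice and 0 for alcohol averaged over genotypes, scalings that shifted the median gene by 0.43 and 0.20 on the log2 scale. Over all genes tested this scale called 2984 higher and 1057 lower for alcohol averaged over genotypes (1978 and 1938 as reported), 10 and 4 for genotype under EtOH (17 and 3) and 4 and 1 for genotype under Control (1 and 1). No filter on low counts gave 2 members for alcohol in WT mice, and 1 pathway gene for genotype under EtOH and for genotype averaged over diets. Fitting only the 4 libraries compared gave 1 pathway gene for alcohol in Elf4-/- mice.

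With the replicate number as a block, 1 member was called for alcohol averaged over genotypes and 3 pathway genes for alcohol in Elf4-/- mice. Whether the numbers pair the samples is not stated. Deviations of same-numbered libraries from their group means correlated at -0.11 to 0.06 over the 6 pairs of groups. These correlations run over all genes tested, with 2 libraries a group, so they cannot exclude a pairing that touches part of the genes.

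Leaving out each library in turn, with the lone library of a group assumed to vary like the others, gave 0 to 2 members called for alcohol in WT mice, 0 to 4 for alcohol averaged over genotypes, 0 to 1 for genotype under EtOH and 0 to 1 for genotype averaged over diets. The pathway genes called ran from 4 to 24 for alcohol in WT mice, from 0 to 14 for alcohol in Elf4-/- mice, from 0 to 3 for genotype under EtOH, from 0 to 1 for the interaction and from 0 to 2 for genotype averaged over diets.

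The direction of the small averaged diet effects was not settled. That of Cyp7a1, -0.14 as reported, was 0.0652 with library totals alone and 0.0422 with the block, and ran from -0.56 to 0.93 with libraries left out. That of Akr1d1 (0.12) ran from -0.0591 to 0.28 and that of Abcb4 (0.06) from -0.23 to 0.26. The cause was not tested.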
